A study of Mus musculus with 22 samples.

Results

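The 300 bins of 100 kb described here were the autosomal bins in which 5-methylcytosine (5mC) was lowest in the olfactory bulb relative to both cortex and cerebellum of the mouse. They were chosen by their own 5mC levels. For every bin the gap was the smaller of 2 differences, cortex minus olfactory bulb and cerebellum minus olfactory bulb, each between tissue means, and the bins with the largest gap were taken. The choice was made among 24011 autosomal bins that lay above 0 and below 1 in all 7 oxBS-seq libraries, out of 26327 bins in the tables, so the 300 bins were 1.25% of those eligible. All 7 libraries entered the choice, and the 5mC levels below are therefore a description, with no test.

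The tissues came from female C57BL/6 mice at 8 weeks of age, without treatment. The cortex was the cerebral cortex without the hippocampus, and the olfactory bulb and the cerebellum were taken whole. Oxidative bisulfite sequencing (oxBS-seq), which leaves 5mC as the only cytosine form read as modified, was available for 3 cortex, 2 olfactory bulb and 2 cerebellum libraries. TET-assisted bisulfite sequencing (TAB-seq), which reads 5-hydroxymethylcytosine (5hmC) alone, was available for 3 libraries of each tissue in bins of 1 Mb. A level is the fraction of cytosine signal in a bin that was modified, from 0 to 1. No coverage was given with the levels, so the depth of each value is unknown and precision was judged from the spread between libraries. All values are from bulk tissue, in which fewer cells of a type with a modified bin and less modification per cell cannot be told apart. Over all eligible bins the mean 5mC of the third cortex library, at 0.657, lay below that of the other cortex libraries, at 0.681 and 0.684. When it was left out, 274 of the 300 bins were chosen again.

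In mammals 5mC is laid down at CpG sites by DNA methyltransferases and is oxidised to 5hmC by TET enzymes. 5hmC is abundant in neurons, above all within gene bodies. The olfactory bulb is supplied throughout life with new GABAergic interneurons, the granule and periglomerular cells, whose precursors migrate from the subventricular zone. Transcription factors of these cells and their precursors include members of the Dlx, Meis, Pbx and Tshz families. They also include Sp8, Sp9, Etv1, Gsx2, Pax6, Vax1, Zic1 and Six3.

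The levels were averages over many CpG sites, and the sequences below show, with each CpG in capitals, what such sites look like at 2 kinds of place in the 300 bins. The promoters are from RefSeq (GRCm38.p6, 250 bases before to 50 bases after the start site). They belong to the first 3 genes, in the order of the number of bins held, that had a start site in one of the bins and a promoter within 1000 bases of it. Adarb2 (chr13:8202616-8202915, plus strand) had 9 CpGs, Prkca (chr11:108343839-108344138, minus strand) had 42 and Dync1i1 (chr6:5725389-5725688, plus strand) had 6.
Adarb2 promoter: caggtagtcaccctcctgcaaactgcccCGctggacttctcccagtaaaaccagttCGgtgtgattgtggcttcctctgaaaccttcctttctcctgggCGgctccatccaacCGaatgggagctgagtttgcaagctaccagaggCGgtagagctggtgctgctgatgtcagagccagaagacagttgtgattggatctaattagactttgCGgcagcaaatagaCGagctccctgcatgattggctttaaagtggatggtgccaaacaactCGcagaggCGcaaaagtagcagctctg
Prkca promoter: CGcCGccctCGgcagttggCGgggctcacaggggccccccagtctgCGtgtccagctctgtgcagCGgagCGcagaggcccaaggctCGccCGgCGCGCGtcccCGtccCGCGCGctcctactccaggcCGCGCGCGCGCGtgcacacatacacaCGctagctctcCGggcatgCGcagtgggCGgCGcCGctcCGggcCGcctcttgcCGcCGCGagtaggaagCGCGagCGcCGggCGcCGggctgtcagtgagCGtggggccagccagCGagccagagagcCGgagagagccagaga
Dync1i1 promoter: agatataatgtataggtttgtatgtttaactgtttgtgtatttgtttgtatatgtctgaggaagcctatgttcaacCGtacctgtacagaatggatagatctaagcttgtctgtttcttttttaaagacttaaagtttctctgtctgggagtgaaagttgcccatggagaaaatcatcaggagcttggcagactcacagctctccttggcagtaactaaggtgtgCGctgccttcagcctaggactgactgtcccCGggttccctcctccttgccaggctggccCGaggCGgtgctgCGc
Of 13553 matched promoters of autosomal protein-coding genes, 66.9% held as many CpGs as that of Adarb2, 4.26% as many as that of Prkca and 74.6% as many as that of Dync1i1. Of the 138 protein-coding genes that started in one of the 300 bins, 82 had a matched promoter, with a median of 22.5 CpGs, beside 16.0 over all 13553.

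For 3 of the bins with the largest gaps, the 200 bases with the most CpGs among intronic bases outside annotated repeats are given, read from GRCm38 on the strand of the gene and picked after the values were seen. The stretch in Pbx3 was chr2:34249654-34249853 with 9 CpGs, that in Pcbp3 was chr10:76961504-76961703 with 14, and that in Meis2 was chr2:115961750-115961949 with 9. All 3 genes are on the minus strand.
Pbx3 intron: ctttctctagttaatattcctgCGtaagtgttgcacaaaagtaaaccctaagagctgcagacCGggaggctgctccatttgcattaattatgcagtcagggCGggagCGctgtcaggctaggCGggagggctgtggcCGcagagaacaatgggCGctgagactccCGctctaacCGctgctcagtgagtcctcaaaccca
Pcbp3 intron: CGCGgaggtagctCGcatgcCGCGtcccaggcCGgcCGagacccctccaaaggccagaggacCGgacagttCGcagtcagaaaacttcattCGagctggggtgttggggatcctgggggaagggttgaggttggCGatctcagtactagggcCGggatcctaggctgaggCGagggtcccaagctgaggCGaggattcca
Meis2 intron: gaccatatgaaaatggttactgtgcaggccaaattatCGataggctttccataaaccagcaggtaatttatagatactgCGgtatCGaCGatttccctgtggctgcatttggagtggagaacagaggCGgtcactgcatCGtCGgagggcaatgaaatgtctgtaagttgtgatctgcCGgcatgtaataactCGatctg
The whole bins around these stretches held 6.12 (Pbx3), 10.4 (Pcbp3) and 8.94 (Meis2) CpGs per kb, so that each level averages over CpGs of dense stretches such as these and over many sparser ones.

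The gap of the 300 bins ran from 0.0571 to 0.346 with a median of 0.0825, whereas the median over the eligible bins was -0.0343. Only 2489 eligible bins (10.4%) had a gap above 0. The gap was above 0.2 in 12 of the 300 bins, above 0.1 in 94 and below 0.07 in 88. Both olfactory bulb libraries lay below all 5 other libraries in 298 of the 300 bins, against 3.79% of the eligible bins, which follows from the choice. The exceptions were a bin of predicted genes at chr14:7100001-7200000, where the olfactory bulb libraries gave 0.650 and 0.500, and the bin of Chsy1, a chondroitin synthase, at chr7:66100001-66200000, where they gave 0.503 and 0.443 beside 0.493 in the third cortex library. In 270 bins the gap, by which they were chosen, exceeded 3 times the SD between the 2 olfactory bulb libraries of that bin. The spread in cortex did not enter this count. Its median SD over the 300 bins was 0.0174, beside 0.0118 in olfactory bulb. Just inside the limit were bins of Slc4a4 (0.0572), Tacr1 (0.0571) and Gse1 (0.0571), and just outside it bins of Gda (0.0569), Celf2 (0.0568) and Dlgap2 (0.0566).

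Averaged over the 300 bins, the 3 cortex libraries gave 0.619, 0.630 and 0.602, the olfactory bulb libraries 0.526 and 0.513, and the cerebellum libraries 0.698 and 0.681. The tissue means were 0.617 ± 0.0142 (SD, n = 3), 0.519 ± 0.00930 (SD, n = 2) and 0.689 ± 0.0122 (SD, n = 2). Over all eligible bins the corresponding means were 0.674, 0.705 and 0.732. The 300 bins thus lay below the eligible bins in every tissue, by 0.0570 in cortex, 0.0431 in cerebellum and 0.185 in olfactory bulb. Cortex was the tissue nearer to the olfactory bulb in 270 bins (90.0%), and cortex lay below cerebellum in 91.0% of the eligible bins. A tissue mean below 0.5 was found in 100 of the bins in olfactory bulb, in 28 in cortex and in 13 in cerebellum. Of all eligible bins, 2.49%, 3.27% and 2.49% lay below 0.5 in the same tissues.

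**Figure D1:**
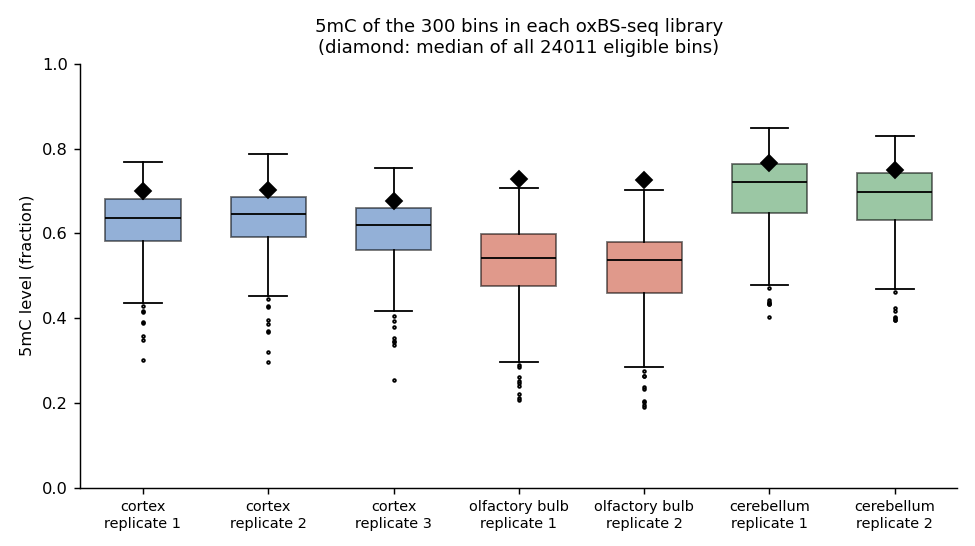
5mC level (fraction, vertical axis) of the 300 bins in each of the 7 oxBS-seq libraries, as boxes from the lower to the upper quartile with the median as a line, whiskers to 1.5 times the box and points beyond, and a diamond for the median of all eligible bins in the same library. The boxes of the olfactory bulb libraries have medians of 0.543 and 0.536, well below their diamonds at 0.728 and 0.725, and the other boxes lie closer to theirs.

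The bin with the largest gap, at chr18:84000001-84100000, contains Tshz1, a zinc finger factor needed by olfactory bulb interneurons, and Zadh2. Its level was 0.570, 0.575 and 0.556 in the cortex libraries, 0.240 and 0.201 in the olfactory bulb libraries and 0.601 and 0.562 in the cerebellum libraries. The olfactory bulb libraries stood apart from the other 5, which overlapped among themselves. Pbx3, a homeodomain partner of Hox and Meis proteins, held the bin that came next (chr2:34200001-34300000), with 0.672, 0.693 and 0.613 in cortex, 0.371 and 0.331 in olfactory bulb and 0.731 and 0.701 in cerebellum. The following bin of the same gene had a gap of 0.210. Pcbp3, a poly(C)-binding protein gene, had gaps of 0.306 and 0.215 in neighbouring bins at chr10:76800001-77000000. In the former, the olfactory bulb libraries gave 0.379 and 0.340 and all other libraries lay between 0.635 and 0.681.

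Meis2 encodes a homeodomain factor of the same family as the Pbx proteins. Its bin at chr2:115900001-116000000 gave 0.642, 0.621 and 0.617 in cortex, 0.303 and 0.340 in olfactory bulb and 0.786 and 0.778 in cerebellum. The neighbouring bin, which holds the gene's start site, was lower in all libraries, with 0.222 and 0.189 in olfactory bulb and between 0.421 and 0.576 in the others. All 3 bins of Meis2 were among the 300, and their olfactory bulb mean of 0.296 ± 0.00246 (SD, n = 2) compares with 0.543 ± 0.0186 (SD, n = 3) in cortex and 0.657 ± 0.0137 (SD, n = 2) in cerebellum. The last of the 10 leading bins lay in Auts2, a chromatin regulator gene linked to neurodevelopmental disorder, with a gap of 0.205. In each of 8 of the 10 leading bins, those in Tshz1, Pbx3, Pcbp3, Meis2 and Auts2, the olfactory bulb libraries lay below the other 5, by at least 0.178 between the nearest libraries.

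**Figure D2:**
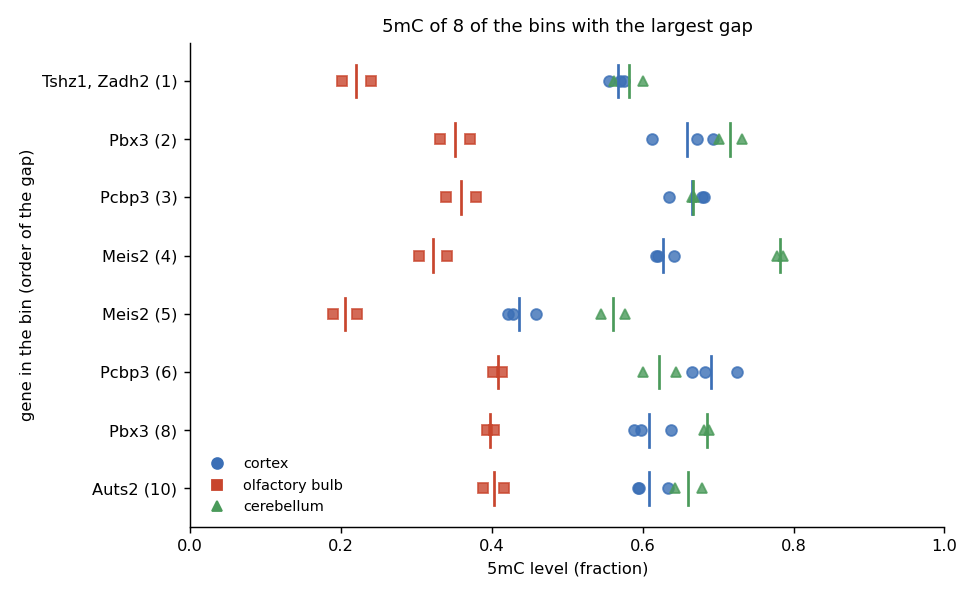
5mC level (fraction, horizontal axis) of 8 of the 10 bins with the largest gap, each row a bin labelled with its genes and its order, with 1 symbol per library and a vertical tick at each tissue mean. The olfactory bulb squares stand to the left of all circles (cortex) and triangles (cerebellum) in every row, and cortex lies between the other tissues in most rows.

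The bins lay mostly in genes, and these tended to be long. A median of 100% of a bin was covered by annotated genes, against 48.7% over the eligible bins, and 154 bins (51.3%) lay wholly within genes against 17.6%. A protein-coding gene was overlapped by 277 of the 300 bins. These genes numbered 248 of 20775 (1.19%), but 134 of 2371 genes of 100 kb or more (5.65%) and 54 of 541 of 300 kb or more (9.98%). A longer gene spans more bins, however, and so has more chances to overlap a chosen one. Counted by bin, 124 of 3677 gene bins were chosen in genes of 300 kb or more. Among all bins with a protein-coding gene it was 277 of 15549 (1.78%). The longest gene of a bin had a median length of 228 kb, beside 104 kb for eligible bins with a gene. Start sites were no more frequent than elsewhere, being present in 35.3% of the bins and 41.9% of the eligible bins. The bins were richer in CpG, with a median of 10.1 per kb against 7.79, slightly richer in G and C (43.5% against 41.4%) and poorer in masked repeats (22.9% against 31.6%).

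Some of these features were shared by the 300 bins least methylated in cortex and the 300 least methylated in cerebellum, chosen in the same way. Their median gene cover was 100% and 92.0%. Their CpG content differed, with 7.58 per kb in the bins of cortex and 10.9 per kb in those of cerebellum. No test was made on these sets, which were chosen by readout.

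The genes with the most of the 300 bins were Auts2 with 9 of its 12, and Nrxn3, a presynaptic adhesion molecule, with 6 of its 17. Ptprm, a receptor tyrosine phosphatase, had 5 of 8, Adarb2, a brain-expressed relative of the RNA-editing enzymes, 5 of 6, and Prkca, protein kinase C alpha, all 5. Cdk14 (a cyclin-dependent kinase), Cacna1c (the pore of an L-type calcium channel) and Fgf12 (an intracellular modulator of sodium channels) had 4 of 7 each. Celf2, Maml3, Cpne4, Synpr, Zfp407, Zfp385b, Dync1i1, Dscaml1, Lrba, Myo16, Ptpro, Meis2, Pcbp3, BC052040 and Dclk2 had 3 each, which was every bin of the last 5 of them. Kcnb2 had 2 of 6. The olfactory bulb mean over the bins of a gene was 0.352 for Celf2 and 0.624 for Ptprm.

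Along Auts2 the gap was not even. It was 0.122 in the bin of the start site, reached 0.205 in the bin centred 193 kb into the gene, and lay between 0.0641 and 0.0752 in the 4 bins from 493 to 793 kb. The last 3 bins, which were not among the 300, had gaps of 0.0448, 0.0473 and 0.0300. In the 9 chosen bins the libraries gave means of 0.627, 0.649 and 0.620 in cortex, 0.520 and 0.499 in olfactory bulb and 0.728 and 0.710 in cerebellum. In Nrxn3 the 6 bins nearest the start site were chosen, with gaps from 0.0681 to 0.160, and the next 5 had gaps from 0.0419 to 0.0540. From the bin centred 1127 kb into the gene to that at 1527 kb the gap was negative because cerebellum lay below the olfactory bulb, at 0.407 beside 0.556 in the former. In the last bin of the gene it was cortex (0.731) that lay below the bulb (0.742), and cerebellum was at 0.761. Over all genes of 300 kb or more, divided into parts of equal length, the first part held 49 of the 124 chosen gene bins (3.72% of the bins there), the middle part 38 (3.70%) and the last part 37 (2.78%).

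**Figure D3:**
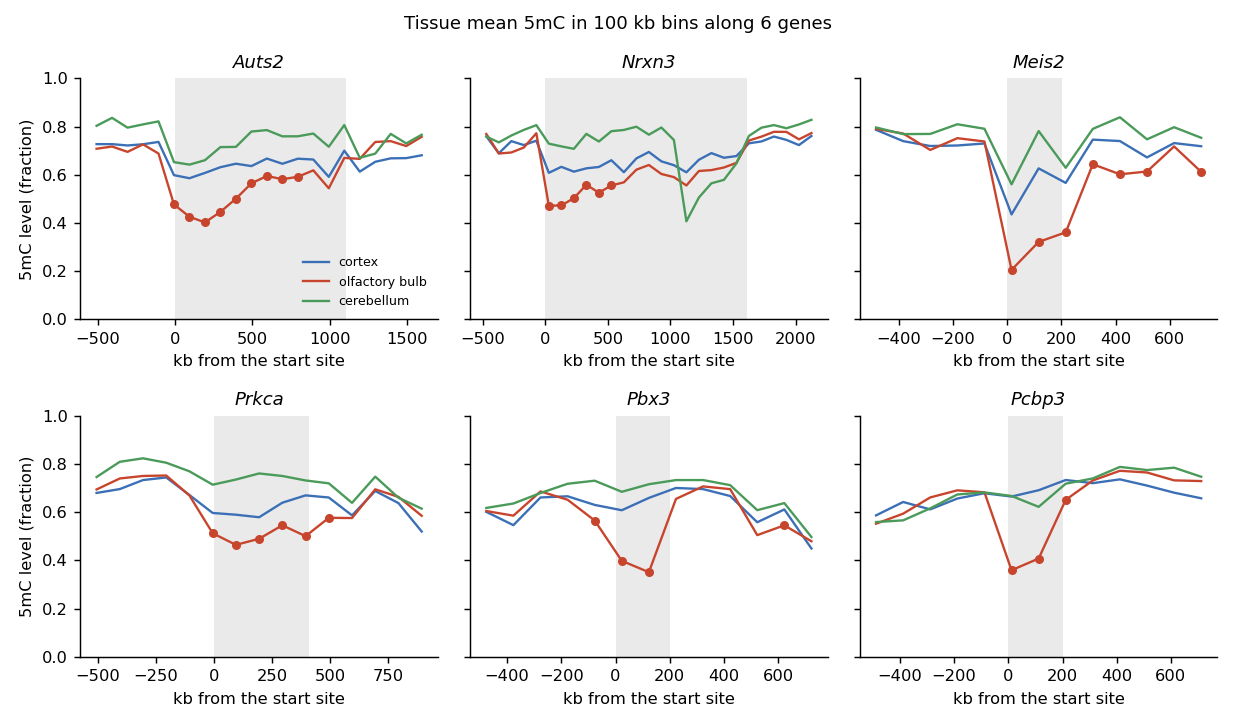
Tissue mean 5mC level (fraction, vertical axis) in 100 kb bins against the distance in kb from the start site of 6 genes, in the direction of transcription, with the gene body shaded and circles on the olfactory bulb line at the chosen bins. The olfactory bulb line (red) drops within the shaded bodies of Meis2, Prkca, Pbx3 and Pcbp3 and over the first part of Auts2 and Nrxn3, and from 1127 to 1527 kb in Nrxn3 the cerebellum line (green) is the lowest.

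The bins were clustered along the chromosomes. They formed 196 runs, of which 140 were single bins, 56 had 2 or more and 25 had 3 or more. Another of the 300 bins was adjacent to 160 of them (53.3%), and an adjacent one was found for 377 of the 23711 other eligible bins (1.59%). Within 1 Mb the shares were 69.3% and 13.4%. Among the bins least methylated in cortex 49.0% had such a neighbour, and among those least methylated in cerebellum 39.7%. The longest run was the 9 bins of Auts2 (chr5:131700001-132600000). Runs of 6 covered BC052040 and Meis2 (chr2:115500001-116100000), Nrxn3 (chr12:88700001-89300000) and Prkca with its neighbours Cacng5 and Apoh (chr11:107800001-108400000). Runs of 5 lay in Adarb2 (chr13:8200001-8700000) and in and beside Fgf12 (chr16:28000001-28500000). Cdk14 and Cacna1c each had a run of 4.

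A run of 4 at chr3:34100001-34500000 held no protein-coding gene but lay in Sox2ot, the long non-coding transcript that overlaps the neural stem cell gene Sox2. Its libraries gave 0.674, 0.682 and 0.641 in cortex, 0.550 and 0.531 in olfactory bulb and 0.740 and 0.721 in cerebellum. In all, 23 bins held no protein-coding gene (7.67%, against 35.2% of the eligible bins), and 17 of them overlapped another annotated gene, among them the neuronal microRNA gene Mir124a-3. By chromosome, chromosome 2 held the most bins (35, or 1.96% of its eligible bins). Chromosome 19 held the fewest, 2 (0.343%), and chromosome 4 held 6 (0.393%).

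Outside the 300 bins the difference faded with distance. The 377 eligible bins adjacent to a chosen one had a median gap of 0.00788, and 228 of them (60.5%) had a gap above 0. At 200 kb on either side the share of unchosen bins with a gap above 0 was 42.2% and 37.6%, and at 1000 kb it was 13.5% and 17.5%, beside 10.4% over all eligible bins.

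**Figure D4:**
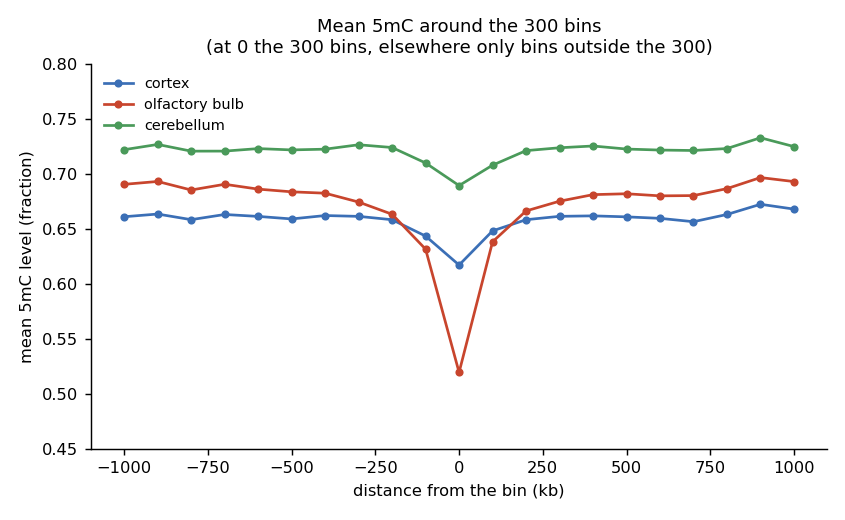
Mean 5mC level (fraction, vertical axis from 0.45 to 0.80) of the 3 tissues against the distance in kb from the 300 bins. The point at 0 is the 300 bins themselves (0.617 in cortex, 0.519 in olfactory bulb, 0.689 in cerebellum), all other points are means over unchosen bins only, and the olfactory bulb line crosses above the cortex line by 200 kb.

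Some genes of olfactory bulb interneurons overlapped the bins. Of 24 measured genes of a list of their transcription factors and markers, 9 overlapped a chosen bin, and 12 of the list's 46 bins (26.1%) were among the 300, beside 1.19% of all protein-coding genes and 1.78% of bins with such a gene. The 9 were Tshz1, Meis2, Pbx3, Dlx1, Dlx2, Dlx5, Dlx6, Gad1 and Synpr. Of the 12 bins, Meis2 and Synpr held 3 each and Pbx3 held 2. The list was drawn up with earlier results of these data known, so these shares are a description and cannot show an excess. Dlx5 and Dlx6, paired homeobox genes of GABAergic precursors, share the bin chr6:6800001-6900000. It gave 0.391, 0.368 and 0.378 in cortex, 0.207 and 0.194 in olfactory bulb and 0.433 and 0.425 in cerebellum, so that it was low in every tissue and lowest in the bulb. The bin of Dlx1 and Dlx2 gave 0.429, 0.446 and 0.428, then 0.308 and 0.288, then 0.508 and 0.477, in the same order. Gad1, which makes GABA, had a chosen bin with 0.512, 0.531 and 0.483, then 0.426 and 0.378, then 0.625 and 0.588. The vesicle protein gene Synpr had 3 chosen bins of 5, with gaps from 0.0724 to 0.126.

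The other 15 genes of the list had no chosen bin. The highest gap over the bins of Gad2 was 0.0546, just under the limit, that of Erbb4 was 0.0420, of Slc32a1 0.0318, of Sp9 0.0307 and of Sp8 0.00956. It was 0.00234 for Th, which makes dopamine, and negative for Pax6 (-0.0677), Six3 (-0.0757), Zic1 (-0.0680), Vax1, Gsx2, Calb1, Calb2, Etv1 and Kit. Over 10 genes of the family of Meis, Pbx and Tgif homeobox factors, 5 of 20 bins (25%) were chosen, all from Pbx3 and Meis2. The remaining 8 of these 10 genes had no bin with a gap above 0, and the highest gaps of the close relatives Meis1 and Pbx2 were -0.00699 and -0.0320.

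Lists for other cells and pathways were drawn up with the same knowledge. They are read against the same shares, 1.19% of all protein-coding genes and 1.78% of their bins. No chosen bin was found in genes of mitral and tufted cells (14 genes), cerebellar granule neurons (19), oligodendrocytes (18), olfactory ensheathing cells (12), vessels (14) or dopamine signalling (13). A single gene was found in each of the lists for neuroblast migration (Robo2, an axon guidance receptor, of 22 genes), cortical excitatory neurons (Bcl11b, of 18), Purkinje cells (Gad1, of 16), astrocytes (Slc4a4, of 16) and microglia (Sall1, of 14). These single genes were 4.55% to 7.14% of the genes of their lists, and their bins 1.59% to 5.88% of the lists' bins. GABA signalling had Gad1 and Abat of 21 genes (9.52%), with 2 of 50 bins (4%). Synaptic adhesion had Nrxn3, Nrxn2, Dscam and Dscaml1 of 31 genes (12.9%), with 11 of 333 bins (3.30%), and Nrxn3 held 6 of these. The median gap over all bins of the synaptic adhesion list was -0.0582, below the -0.0343 of all bins with a protein-coding gene. The chosen bins of the transcription factor genes Sall1 and Bcl11b had gaps of 0.0734 and 0.0919.

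5hmC was measured in other libraries and did not enter the choice of the bins. The 300 bins fell into 180 bins of 1 Mb, 113 with 1 of them, 35 with 2 and 32 with 3 or more. Averaged over the 180 bins, 5hmC was 0.192, 0.205 and 0.184 in the cortex libraries, 0.196, 0.203 and 0.193 in the olfactory bulb libraries and 0.124, 0.122 and 0.127 in the cerebellum libraries. Cortex (0.194 ± 0.0106, SD, n = 3) and olfactory bulb (0.197 ± 0.00505, SD, n = 3) overlapped, and cerebellum (0.125 ± 0.00232, SD, n = 3) lay below both. Over all 2581 fitted bins, which unlike the 180 included chromosome X, the means were 0.163, 0.145 and 0.0949, with olfactory bulb below cortex. Each level covers 1 Mb and hence mostly sequence outside the 100 kb bins.

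Against cortex, 5hmC was higher in olfactory bulb in 34 of the 180 bins (18.9%) by limma on log2(level/(1 - level)) at an adjusted p under 0.05, beside 3.25% of all 1 Mb bins. It was lower in 21 (11.7%), beside 67.7% of all bins, and 125 were not called. In a fit of the 2413 autosomal bins alone, 37 of the 180 were higher and 22 lower, beside 3.56% and 67.8%. The median difference on this log2 scale was 0.0098 in the 180 bins and -0.24 over all bins. The count depended on the scaling: with every library centred on its median, which moved the median of all bins to 0.00038, 164 of the 180 were higher (91.1%) and 2 lower, beside 36.2% and 33.0% of all bins. It also depended on single libraries. Without cortex replicate 2 it was 68 higher, and the count of lower bins was 42 without cortex replicate 3, 13 without olfactory bulb replicate 1 and 12 without olfactory bulb replicate 3.

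The share of higher bins went with the number of chosen bins in the 1 Mb bin. It was 16 of 113 (14.2%) where there was 1, 7 of 35 (20%) where there were 2 and 11 of 32 (34.4%) where there were 3 or more, and the difference between these classes was not tested. In the last class the cortex libraries gave 0.202, 0.215 and 0.193 and the olfactory bulb libraries 0.219, 0.226 and 0.217, so that all of the latter lay above all of the former. Across the 180 bins, Spearman's rho between the number of chosen bins and the difference in 5hmC level was 0.379. Pearson's r between the mean gap and that difference was 0.0236. As a rank coefficient and a linear one, they cannot be compared directly. Both are descriptions over bins measured in the same libraries. Of the 10 bins with the largest rise of 5hmC level from cortex to olfactory bulb among all 2581, 7 held a chosen bin, as did 24 of the first 50, where 6.97% of all 1 Mb bins did.

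The bins that rose most were those of Nrxn3, Adarb2 and a bin of chromosome 8 without a coding gene in its chosen part. The Nrxn3 bin (chr12:89000001-90000000) gave 0.213, 0.225 and 0.203 in cortex, 0.289, 0.291 and 0.283 in olfactory bulb and 0.151, 0.157 and 0.156 in cerebellum. Its log2 difference from cortex was 0.57 (SE 0.073, limma adjusted p = 8.8e-14). The Adarb2 bin (chr13:8000001-9000000) gave 0.163, 0.175 and 0.150, then 0.224, 0.233 and 0.225, then 0.0929, 0.0936 and 0.0983, in the same order, with a difference from cortex of 0.60 (limma adjusted p = 6.5e-15). In the bin at chr8:49000001-50000000 the olfactory bulb mean of 0.216 compared with 0.164 in cortex and 0.0605 in cerebellum. The bins of Meis2 with BC052040 (0.194 in cortex, 0.239 in olfactory bulb, 0.0729 in cerebellum), of Sox2ot (0.187, 0.237 and 0.0794), of Auts2 (0.251, 0.288 and 0.217), of Dlx5 and Dlx6 (0.173, 0.201 and 0.0791) and of Synpr (0.156, 0.185 and 0.0985) were also higher than in cortex. In these the olfactory bulb libraries lay above all cortex libraries. The standard error was the same for every bin, because limma shrank all variances to a common value.

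Large gaps in 5mC were not always accompanied by higher 5hmC. The bin of Pcbp3 gave 0.178, 0.186 and 0.165 in cortex and 0.153, 0.162 and 0.156 in olfactory bulb, and it was the only one of the 32 bins with 3 or more chosen bins that was lower (log2 difference -0.20, limma adjusted p = 0.011). The bins of Pbx3 (0.199 in cortex and 0.195 in olfactory bulb), Tshz1 (0.211 and 0.220), Dlx1 with Dlx2 (0.196 and 0.210) and Gad1 (0.194 and 0.203) were not called, with limma adjusted p from 0.0992 to 0.612. The largest falls were in the bin of predicted genes on chromosome 14 (from 0.166 to 0.124), in that of St3gal3, a sialyltransferase gene (from 0.175 to 0.142), and in that of Gprc5b and Iqck (from 0.198 to 0.169). Each of these 3 held 1 chosen bin.

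Against cerebellum, 176 of the 180 bins were higher in olfactory bulb (97.8%), beside 91.8% of all bins, and by limma 0 were lower, also at an unadjusted p under 0.05, beside 1.20%. With every library centred on its median the direction was divided, with 75 higher and 83 lower beside 39.1% and 50.9% of all bins. The median log2 difference was 0.78 in the 180 bins and 0.72 over all bins. In level it was 0.0701, beside 0.0498. All 34 bins that were higher than in cortex were also higher than in cerebellum. This was usual, since of the 84 bins higher than in cortex among all 1 Mb bins, 82 were higher than in both. Bins higher than in both were 18.9% of the 180 and 3.18% of all 1 Mb bins. The largest rises in level were in the bins of Meis2 (0.167), Robo2 (0.161) and Sox2ot (0.157). The smallest were in the bins of Nrxn2 (-0.00128), Cacna2d4 with Dcp1b (0.0123) and Ksr2 (0.0129), and none of these 3 was called.

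**Figure D5:**
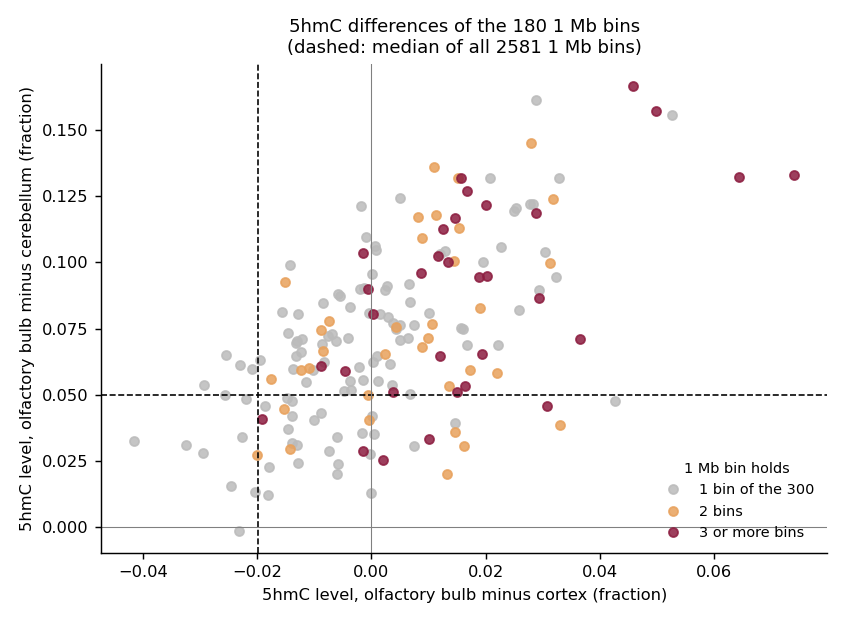
Difference in mean 5hmC level (fraction) between olfactory bulb and cortex (horizontal axis) and between olfactory bulb and cerebellum (vertical axis) for the 180 bins of 1 Mb, coloured by the number of the 300 bins they hold. Dashed lines mark the medians of all fitted 1 Mb bins (-0.0198 and 0.0498), most points lie to the right of the vertical one, and 26 of the 32 points with 3 or more chosen bins lie to the right of 0.

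The same fit was read for the bins least methylated in the other tissues. Of the 189 1 Mb bins with a bin least methylated in cortex, limma called 0 higher in olfactory bulb than in cortex and 153 lower (81.0%). At an unadjusted p under 0.05 it also called 0 of these higher. Of the 224 with a bin least methylated in cerebellum it called 10 higher (4.46%) and 123 lower (54.9%). Of all 1 Mb bins 3.25% were higher and 67.7% lower. The differences between these sets were not tested. The sum of 5mC and 5hmC over the 180 bins averaged 0.844 for cortex, 0.844 for olfactory bulb and 0.837 for cerebellum, and 5hmC made up 23.0%, 23.4% and 14.9% of it. Over all 1 Mb bins with both levels the sum averaged 0.843, 0.855 and 0.831, and 5mC alone 0.674, 0.705 and 0.732. In the 32 bins with 3 or more chosen bins the share of 5hmC in the sum was highest in olfactory bulb, at 26.3%. It was 23.7% in cortex and 15.6% in cerebellum.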

How the data were processed

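The authors mapped paired reads uniquely to mm10 with Bismark (version not given in the sources used here), judged CpG sites modified by a binomial test, and the deposited table of each library holds 1 level per bin as a fraction, 5mC in 100 kb bins and 5hmC in 1 Mb bins. How sites were combined in a bin is not given in the sources used here, and neither the coverage of a bin nor batches are. Replicates came from independent mice. 16 libraries were used, grouped by their labels, and the 6 RNA-seq libraries were not analysed here.

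From there, levels were averaged per tissue without weights and the 300 bins were taken by their gap. The members and the gene lists were chosen with earlier results of these data known. Genes were from GENCODE M21, CpG and GC from GRCm38.p6, and promoters from RefSeq. 5hmC was tested over all 2581 bins of 1 Mb that lay above 0 and below 1 in all 9 TAB-seq libraries, with limma 3.58.1 (R 4.3.3) on log2(level/(1 - level)), 1 fit over the 3 tissues and Benjamini-Hochberg adjustment at 0.05. The fit was tested on simulated data. 5mC of the 1 Mb bins was the mean of their 100 kb bins. Named genes were the 25 with the most bins, list genes with a bin, and those of the 10 leading bins, of the bins at the limit, of the longest runs and of the 3 largest rises and falls of 5hmC. Results for 1 gene, which was also left out of the gene lists, are not reported here. Python 3.11.15 was used otherwise. Alternatives changed the scale, the scaling between libraries, the options of the fit, the number of bins chosen and each library in turn.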

Additional observations from a re-analysis of the deposited data

How the results depend on the processing

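Of 117 recomputed values, 95 stayed the same and 22 moved. A count stayed the same within 1.5 times, and a median gap within the median SD of the 2 olfactory bulb libraries. Counts were compared as numbers, not shares, so a setting with fewer or more bins could move a count by that alone. Gene cover stayed the same within the SD of its values with 1 library left out. Chosen on levels centred on library medians, 236 of the 300 bins recurred, with a median gap of 0.105 and a gene cover of 97.5%. Leaving out 1 oxBS-seq library kept 260 to 294 bins, with a median gap of 0.0762 to 0.0904, a gene cover of 97.2% to 100% and 157 to 166 bins with an adjacent one. The 100 and 600 bins with the largest gap had median gaps of 0.118 and 0.0570 and 49 and 336 bins with an adjacent one, and the 600 had a gene cover of 92.4%. Protein-coding genes alone covered 97.2%.

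On the fraction scale, 5hmC was higher than in cortex in 56 and lower in 41 of the 180 bins. Centred on library medians it was higher than in cortex in 164 and lower in 2, and higher than in cerebellum in 75 and lower in 83, so that the median log2 difference from cerebellum turned from 0.78 to -0.025. In the 32 bins with 3 or more chosen bins it was higher than in cortex in 11, lower in 1 and higher than in cerebellum in 32. Leaving out 1 TAB-seq library gave 26 to 68 higher and 12 to 42 lower than in cortex, and 174 to 179 higher and 0 lower than in cerebellum. Without cortex replicate 3, 26 were higher and 42 lower than in cortex, where all libraries gave 34 and 21, and the median log2 difference turned from 0.0098 to -0.034. The cause of these shifts was not tested. Replicates of different tissues share only a number: their deviations correlated at -0.191 to 0.429. With the replicate number as a block, 39 bins were higher and 25 lower than in cortex, and 176 higher and 0 lower than in cerebellum. The depth of the libraries is unknown, and a 1 Mb level cannot show where in the bin 5hmC lies. In simulated data for the comparison with cortex, 23% of bins changed by 0.2 on the log2 scale were found and 100% of those changed by 0.5. Of the unchanged bins, 1 and 10 were called. The simulated noise was independent for every value, without shifts of whole libraries, so these shares need not hold for the real libraries.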
